A study of Mus musculus with 16 samples.

Results

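The type II and atypical cadherins are a family of cell adhesion proteins, and 10 of them were followed here across 4 mouse genotypes in the prefrontal cortex: Cdh4, Cdh6, Cdh7, Cdh8, Cdh9, Cdh10, Cdh11, Cdh12, Cdh13 and Cdh18. The members were taken by gene symbol, as 10 of the 23284 genes in the expression table, with earlier results of these data known. All 10 were measured in every library and passed the filter on low values, a mean of at least 0.5 FPKM (fragments per kilobase of transcript of sequenced fragments scaled to depth, a level corrected for transcript length). Of the 10, 8 are type II classical cadherins. Cdh4, also called R-cadherin, is a type I classical cadherin and stands outside the name of the set, and Cdh13, also called T-cadherin, is the one atypical member.

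Classical cadherins span the membrane, bind cadherins on the neighbouring cell through their outermost repeat, and hold β-catenin and p120 catenin on their tails, through which they reach actin. β-catenin therefore serves both at the cadherin complex and in the nucleus, where it acts with TCF/LEF factors in Wnt signalling. Type II cadherins are expressed in different combinations by different neurons and help them find their partners. They fall into groups that prefer one another: Cdh8 with Cdh11, Cdh6 with Cdh9 and Cdh10, and Cdh7 with Cdh12 and Cdh18. Cdh13 is held to the membrane by a lipid anchor, lacks the catenin-binding tail, and also binds the hormone adiponectin.

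What sets the 3 kinds apart can be read in the coding sequence of the outermost repeat, where tryptophan residues dock into the partner cadherin. The 12 codons that follow the cleavage site of the pro-region are shown for one pair of preferred partners, one member of each other type II group, and the members that are not type II. They are read 5′ to 3′ along the coding strand, from transcripts of the GENCODE vM21 annotation on GRCm38 (mm10), and tryptophan codons are in capitals.
Cdh8 (chr8:99400759-99400794, minus strand): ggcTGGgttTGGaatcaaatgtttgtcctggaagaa
Cdh11 (chr8:102679645-102679680, minus strand): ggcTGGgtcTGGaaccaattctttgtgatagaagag
Cdh10 (chr15:18899751-18899786, plus strand): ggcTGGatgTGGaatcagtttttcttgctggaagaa
Cdh18 (chr15:23173861-23173896, plus strand): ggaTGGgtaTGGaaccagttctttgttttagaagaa
Cdh4 (chr2:179797560-179797595, plus strand): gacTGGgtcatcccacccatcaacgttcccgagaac
Cdh13 (chr8:118757416-118757451, plus strand): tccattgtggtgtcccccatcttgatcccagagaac
All 8 type II members carried a tryptophan codon at positions 2 and 4 of this stretch, Cdh4 carried one at position 2 only, and Cdh13 carried none within the 12 codons.

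The proteins encoded by the transcripts with the longest coding sequence fell into the same order. The 8 type II members were 785 to 799 amino acids long, each from 11 coding exons, and were 55.7% to 72.0% identical in the 28 pairs. Within the groups that prefer one another, Cdh6 was 72.0% identical to Cdh10 and 71.8% to Cdh9, Cdh9 was 70.1% identical to Cdh10, and Cdh8 was 68.1% identical to Cdh11. Cdh7, Cdh12 and Cdh18 were less close, at 59.7% to 60.8%. Cdh4, at 913 amino acids and 16 coding exons, was 37.6% to 41.8% identical to the type II members, and Cdh13, at 714 amino acids and 14 coding exons, was 31.4% to 36.7% identical to them. In the genome, 5 members (Cdh6, Cdh9, Cdh10, Cdh12 and Cdh18) lay on chromosome 15 and 3 (Cdh8, Cdh11 and Cdh13) on chromosome 8, with Cdh7 on chromosome 1 and Cdh4 on chromosome 2.

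RNA from freshly dissected prefrontal cortex was sequenced in 16 libraries, 4 of each genotype, to compare mice with raised β-catenin, mice with lowered β-catenin and their littermates. APC cKOs (APC fl/fl) lose the adenomatous polyposis coli protein, which targets β-catenin for degradation, and so have raised β-catenin. β-cat cOEs (ctnnb1 fl(ex3)/+) make a stable, N-terminally truncated β-catenin from one allele and have raised β-catenin with APC present, and the double mutants, APC/β-cat cKOs, are homozygous for floxed alleles of both genes (APC fl/fl with ctnnb1 fl/fl) and lose both proteins. All 3 mutant lines carried the CamKIIα-Cre-93 transgene, which acts mainly in excitatory neurons of the forebrain from the early postnatal weeks, whereas the controls were Cre-negative littermates pooled from the lines. Mice were 2 to 3 months of age and of both sexes. Cre itself and the floxed alleles it recombines cannot be told apart against controls. In whole tissue, fewer cells of a type and less RNA per cell cannot be told apart either, and cells outside the Cre lineage contribute to every value.

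At the floxed Apc gene the libraries were low or high as their labels call for. Apc was at 40.8 to 50.1 FPKM in controls and 38.8 to 49.5 FPKM in β-cat cOEs, and at 7.85 to 17.1 FPKM in APC cKOs and 6.80 to 12.2 FPKM in APC/β-cat cKOs. This check does not tell APC cKOs from the double mutants or β-cat cOEs from controls, whose Apc ranges overlapped. Ctnnb1, the β-catenin gene, was at 155 to 166 FPKM in both controls and β-cat cOEs, and did not tell these 2 apart either. It was at 157.3 to 182 FPKM in APC cKOs and at 150.9 to 156.7 FPKM in APC/β-cat cKOs, which narrowly did not overlap (log2 difference 0.14, limma adjusted p = 0.295). Cortical excitatory markers were present throughout, with Slc17a7, the vesicular glutamate transporter, at 395 to 532 FPKM. Markers of neighbouring tissue varied between libraries of 1 genotype: the sum of 8 olfactory bulb markers exceeded 200 FPKM in 1 library of each genotype (control replicate 3, APC cKO replicate 1, β-cat cOE replicate 1 and APC/β-cat cKO replicate 2) and was 25.7 to 160 FPKM in the others. The sum of the striatal markers ranged from 111 to 607 FPKM. Sex-linked genes marked replicate 1 of the controls and of the APC cKOs as female and the other 14 libraries as male.

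In control cortex the members spanned a wide range of levels, and those of one binding group did not share a level. Cdh10 was highest at 23.4 ± 1.495 FPKM (SD, n = 4), followed by Cdh11 at 22.04 ± 1.85 and Cdh13 at 21.3 ± 1.66. Cdh8 at 15.8 ± 0.998, Cdh18 at 12.3 ± 1.58 and Cdh9 at 9.97 ± 1.39 FPKM were intermediate. Cdh7 at 7.10 ± 0.452, Cdh6 at 4.93 ± 1.48, Cdh12 at 4.66 ± 1.02 and Cdh4 at 4.56 ± 0.497 FPKM were lowest. The control ranges separated Cdh13 from Cdh8, Cdh8 from Cdh18 and Cdh9 from Cdh7, while every other pair of neighbours in this order overlapped. Cdh10 was above 83.5% of all genes in the table and Cdh4 above 58.5%.

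**Figure D1:**
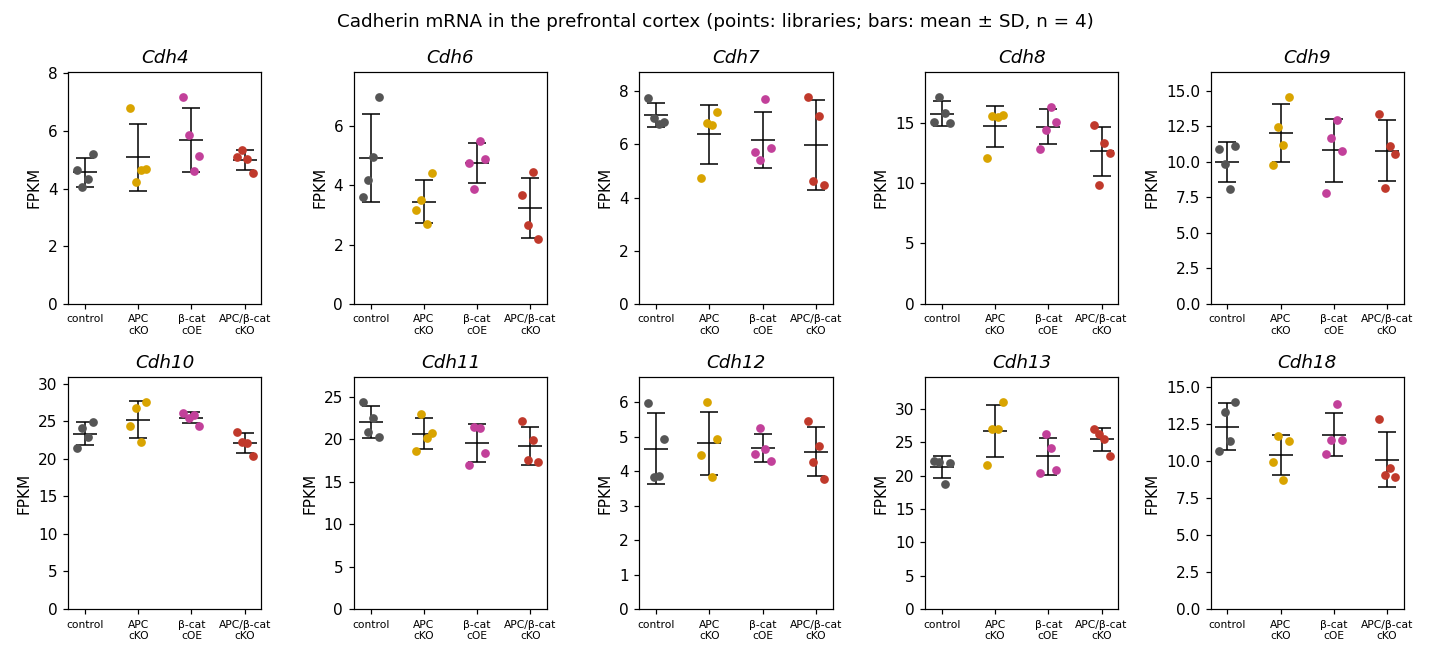
FPKM of the 10 cadherins (vertical axes from 0, one panel per gene) in 16 prefrontal cortex libraries grouped by genotype, with points for libraries and bars for the mean ± SD of 4. Genotypes overlap in most panels, and Cdh8 and Cdh13 in APC/β-cat cKOs against controls and Cdh10 in β-cat cOEs against the double mutants are the separations that the text describes. The share of all genes that separate in these comparisons was not computed.

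None of the 10 cadherins differed between genotypes at an adjusted p under 0.05 in any of 7 comparisons (limma, Benjamini-Hochberg over 13978 genes), and the smallest adjusted p was 0.257, for Cdh10 in β-cat cOEs compared with the double mutants, APC/β-cat cKOs. Few genes of any kind passed: 0.0429% in APC cKOs against controls, 0.0143% in β-cat cOEs against controls and 0.207% in APC/β-cat cKOs against controls. Between mutant lines, 0.0429% passed in APC cKOs against β-cat cOEs, and against APC/β-cat cKOs 0.215% passed with APC cKOs and 0.229% with β-cat cOEs. The seventh comparison set the mean of both lines with raised β-catenin against the mean of the other 2 genotypes, and 0.0572% of genes passed there.

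At an unadjusted p under 0.05 the members stood out in 10 of 70 values, spread over Cdh6, Cdh8, Cdh10, Cdh13 and Cdh18. Against controls these were 2 of 10 in APC cKOs (Cdh13 higher, Cdh6 lower), where 10% of all genes were below that p. None was in β-cat cOEs, where 5.07% of all genes were. In APC/β-cat cKOs 4 of 10 were (Cdh13 higher, and Cdh6, Cdh8 and Cdh18 lower), beside 14.2% of all genes. Cdh10 was the 1 member below that p in APC cKOs against APC/β-cat cKOs, beside 10.3% of all genes, and Cdh10 and Cdh6 were the 2 when β-cat cOEs were set against that line, beside 11.9%. In APC cKOs against β-cat cOEs there was no member, beside 7.57% of all genes, and in the raised β-catenin comparison there was 1, Cdh10, beside 8.84%. Without the 4 libraries high in olfactory bulb markers, a fit with fewer libraries, the members below that p against controls were 1 in APC cKOs (Cdh13), 1 in APC/β-cat cKOs (Cdh8) and 0 in β-cat cOEs. With all libraries and the olfactory bulb sum as a covariate they were Cdh6, Cdh9 and Cdh13 in APC cKOs. In APC/β-cat cKOs they were then Cdh6, Cdh8, Cdh11, Cdh13 and Cdh18, and in β-cat cOEs there were 0. The share of all genes below that p in these fits was not computed.

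The medians of the 10 log2 differences were small, at -0.022 for APC cKOs, -0.14 for APC/β-cat cKOs and 0.0041 for β-cat cOEs, each against controls, where the median of all genes tested was -0.0042, 0.0031 and -0.0036. Against APC/β-cat cKOs, all 10 members had the higher mean in APC cKOs (median 0.11) and 9 of 10 in β-cat cOEs (median 0.12), while 49.7% and 49.6% of all genes did. The difference of Cdh4 in APC cKOs was only 0.0023. In the same order, the counts were 7 of 8 and 8 of 8 for other atypical cadherins, and 8 of 10 and 7 of 10 for delta protocadherins. They were 4 of 7 and 5 of 7 for other classical cadherins, 7 of 8 and 4 of 8 for catenins, and 1 of 7 and 2 of 7 for cadherin-cleaving enzymes. Cdhr1, counted among the other atypical cadherins, is also an olfactory bulb marker, and had the largest difference of that list in β-cat cOEs, at 0.57. Members measured in the same libraries are not independent of one another. These comparisons share the APC/β-cat cKO libraries, as the first 3 share the controls. The 95% intervals show what size remained possible: against controls, those of the 10 members in β-cat cOEs lay between -0.59 and 0.61 on the log2 scale.

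**Figure D2:**
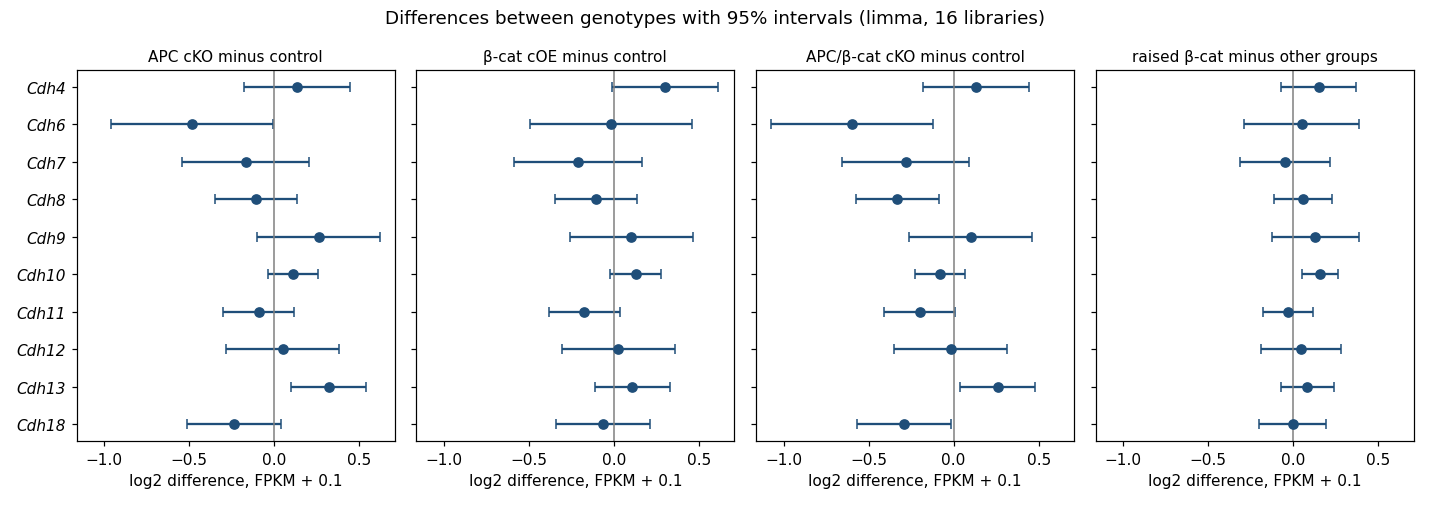
Log2 differences in FPKM + 0.1 (horizontal axis) of the 10 cadherins in 4 comparisons, with 95% intervals from limma over 16 libraries. Intervals that leave out 0 belong to Cdh6 and Cdh13 in APC cKOs, to Cdh6, Cdh8, Cdh13 and Cdh18 in APC/β-cat cKOs, to none in β-cat cOEs, and to Cdh10 in the raised β-catenin comparison. None of them passed an adjusted p under 0.05.

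Of the Cdh8 and Cdh11 pair, Cdh8, which guides retinal bipolar cells to their layer and is found in cortical projection neurons, was lowest in APC/β-cat cKOs. Cdh8 was at 15.1, 17.2, 15.8 and 15.02 FPKM in controls and at 14.8, 9.89, 13.3 and 12.5 FPKM in APC/β-cat cKOs, so that these 2 genotypes did not overlap. The log2 difference was -0.33 (SE 0.11, limma p = 0.0106, adjusted p = 0.278), with an exact two-sided permutation p of 0.0286, the smallest that 4 against 4 libraries allow. For this separation and those of Cdh10 and Cdh13 below, the share of all genes without overlap was not computed. In this comparison 14.2% of all genes were below an unadjusted limma p of 0.05. The APC cKO libraries were at 12.1, 15.6, 15.5 and 15.6 FPKM and the β-cat cOE libraries at 12.9, 14.4, 16.4 and 15.1 FPKM, overlapping the controls. Without the 4 libraries high in olfactory bulb markers, a fit with fewer libraries, the difference of Cdh8 in APC/β-cat cKOs was -0.22 (limma adjusted p = 0.587). With all libraries and the olfactory bulb sum as a covariate it was -0.31 (limma adjusted p = 0.171), and -0.28 with the striatal sum added (adjusted p = 0.145).

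Cdh11, first known from osteoblasts and also present at synapses, had mean levels between 19.2 FPKM in APC/β-cat cKOs and 22.04 FPKM in controls. It was at 24.4, 20.9, 22.6 and 20.3 FPKM in controls and at 22.2, 17.6, 19.9 and 17.3 FPKM in APC/β-cat cKOs. The APC cKO libraries were at 18.6, 23.03, 20.2 and 20.8 FPKM, and those of β-cat cOEs at 17.0, 21.5, 21.4 and 18.4 FPKM. All 3 mutant ranges overlapped the control range, and the log2 difference furthest from 0, in APC/β-cat cKOs, was -0.20 (95% interval -0.41 to 0.0087, limma adjusted p = 0.368).

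In the group of Cdh6, Cdh9 and Cdh10, the 3 members did not follow one another across genotypes. Cdh6, which matches retinal ganglion cell axons to their brain targets, was at 3.59, 4.17, 4.96 and 6.99 FPKM in controls and at 4.75, 3.89, 5.51 and 4.89 FPKM in β-cat cOEs. It was at 3.16, 3.51, 2.68 and 4.40 FPKM in APC cKOs and at 3.67, 2.65, 4.45 and 2.18 FPKM in APC/β-cat cKOs, the 2 lines that lose Apc, although every genotype overlapped every other. Against controls the log2 difference of Cdh6 was -0.49 in APC cKOs (SE 0.22, limma adjusted p = 0.489, exact permutation p = 0.114) and -0.60 in APC/β-cat cKOs (SE 0.22, adjusted p = 0.283, exact permutation p = 0.143), and these 2 values share the control libraries. Of the 10 members Cdh6 was also the most variable over the 16 libraries, with an SD of 29.5% of its mean. Without the 4 libraries high in olfactory bulb markers the 2 differences were -0.44 and -0.51, at a limma adjusted p of 0.828 and 0.615. With the olfactory bulb and striatal sums as covariates they were -0.23 in APC cKOs (limma adjusted p = 0.828) and -0.50 in the double mutants (adjusted p = 0.230). The striatal sum was 111 to 429 FPKM in controls, 148 to 607 for APC cKOs, 136 to 425 for APC/β-cat cKOs and 118 to 326 for β-cat cOEs, and all 8 striatal markers tested had the higher mean in APC cKOs than in controls (median log2 difference 0.72). With genotype means taken off, Cdh6 had an r of -0.586 with the striatal sum (permutation p = 0.0429, adjusted p = 0.245; rho = -0.576, permutation p = 0.0426), and -0.429 without the 2 libraries farthest from the median. The part of striatal tissue in the levels of Cdh6 was not tested.

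Cdh9, which is required for the synapses of mossy fibres in the hippocampus and acts with Cdh8 in bipolar cell targeting, had its highest mean in APC cKOs, at 12 ± 2.03 FPKM (SD, n = 4). Its levels were 9.79, 12.4, 11.2 and 14.6 FPKM in APC cKOs and 10.9, 9.85, 8.05 and 11.1 FPKM in controls. They were 7.79, 11.7, 12.96 and 10.8 FPKM in β-cat cOEs and 13.3, 8.16, 11.1 and 10.5 FPKM in APC/β-cat cKOs. Every genotype overlapped the controls, and the log2 difference in APC cKOs was 0.26 (95% interval -0.10 to 0.62, limma adjusted p = 0.625). It was 0.30 with the olfactory bulb sum as a covariate (limma adjusted p = 0.375) and 0.42 with the striatal sum added (adjusted p = 0.459).

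Cdh10, the most abundant of the 10 in controls and the least variable over the 16 libraries (SD 8.49% of the mean), was higher on average in both lines with raised β-catenin. The intergenic region between the human CDH9 and CDH10 genes has been associated with autism. Cdh10 was at 24.3, 26.8, 22.2 and 27.6 FPKM in APC cKOs and at 26.1, 25.5, 25.9 and 24.4 FPKM in β-cat cOEs. It was at 21.5, 24.1, 22.9 and 24.9 FPKM in controls and at 23.6, 22.2, 22.1 and 20.4 FPKM in APC/β-cat cKOs. The libraries of β-cat cOEs did not overlap those of APC/β-cat cKOs, with a log2 difference of 0.21 (SE 0.070, limma p = 0.00956, adjusted p = 0.257; exact permutation p = 0.0286), while both lines overlapped the controls. Across the raised β-catenin comparison the log2 difference of Cdh10 was 0.16 (SE 0.049, limma adjusted p = 0.382), and without the 4 libraries high in olfactory bulb markers it was 0.16 (adjusted p = 0.927). With the olfactory bulb sum as a covariate it was 0.154 (limma adjusted p = 0.343), and 0.195 with the striatal sum added (adjusted p = 0.0895).

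The group of Cdh7, Cdh12 and Cdh18, adhesion molecules of developing and adult neurons, showed 1 member with a value below an unadjusted p of 0.05. Cdh18 was at 10.6, 13.3, 11.3 and 13.98 FPKM in controls and at 12.9, 9.04, 9.54 and 8.93 FPKM in APC/β-cat cKOs, where 3 of 4 libraries lay under every control and replicate 1 lay among them. Its log2 difference was -0.29 (SE 0.13, limma adjusted p = 0.334, exact permutation p = 0.114). Cdh18 was at 9.96, 11.7, 8.73 and 11.3 FPKM in APC cKOs and at 10.4, 11.4, 13.8 and 11.4 FPKM in β-cat cOEs, both overlapping the controls.

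Cdh7 was closely grouped in controls, at 7.76, 7.001, 6.78 and 6.85 FPKM, and spread more widely in APC/β-cat cKOs, at 7.80, 4.61, 7.08 and 4.46 FPKM. It was at 4.75, 6.79, 6.74 and 7.22 FPKM in APC cKOs and at 5.71, 5.40, 7.71 and 5.85 FPKM in β-cat cOEs. No genotype was separate from the controls. The limma adjusted p of Cdh7 against controls was 0.774 for APC cKOs, 0.470 for APC/β-cat cKOs and 0.9499 for β-cat cOEs.

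Cdh12 had nearly the same mean in the 4 genotypes, from 4.56 FPKM in APC/β-cat cKOs to 4.81 FPKM in APC cKOs. Its libraries were at 5.99, 3.85, 3.88 and 4.92 FPKM in controls and 4.47, 6.01, 3.83 and 4.93 FPKM in APC cKOs. They were at 4.49, 5.25, 4.66 and 4.29 FPKM in β-cat cOEs and 5.46, 4.28, 4.73 and 3.78 FPKM in APC/β-cat cKOs. The 95% intervals of its 3 differences from controls reached from -0.35 to 0.38 on the log2 scale, so differences within those limits remained possible.

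Cdh4, the type I member, which supports the outgrowth of retinal axons, was lowest on average in controls, at 4.66, 4.05, 4.33 and 5.21 FPKM. It was at 7.19, 5.85, 4.601 and 5.11 FPKM in β-cat cOEs, at 6.80, 4.23, 4.63 and 4.66 FPKM in APC cKOs and at 5.10, 5.33, 5.03 and 4.53 FPKM in APC/β-cat cKOs. The highest values, 6.80 and 7.19 FPKM, were those of replicate 1 of the APC cKOs and of the β-cat cOEs, which also had the highest sums of olfactory bulb markers. Replicate 2 of the β-cat cOEs, at an olfactory bulb sum of 105 FPKM, and replicate 2 of the APC/β-cat cKOs, at 286.5 FPKM, also lay above every control for Cdh4. The log2 difference furthest from 0 was 0.30 in β-cat cOEs (95% interval -0.014 to 0.61, limma adjusted p = 0.945), and all genotypes overlapped. With the olfactory bulb sum as a covariate that difference was 0.246 (limma adjusted p = 0.938). Without the 4 libraries high in olfactory bulb markers that difference was 0.16 (limma adjusted p = 1).

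Cdh13, the lipid-anchored member that carries no catenin-binding tail, was higher on average than in controls in both lines that lose Apc. Cdh13 was at 22.2, 22.1, 18.8 and 21.96 FPKM in controls and at 27.1, 26.3, 25.4 and 22.99 FPKM in APC/β-cat cKOs, and these libraries did not overlap. The APC cKO libraries were at 21.7, 27.1, 26.96 and 31.1 FPKM, with 1 of 4 within the control range, and the β-cat cOE libraries were at 20.4, 26.2, 24.2 and 20.9 FPKM. The log2 difference from controls was 0.32 in APC cKOs (SE 0.10, limma p = 0.00723, adjusted p = 0.329; exact permutation p = 0.114) and 0.26 in APC/β-cat cKOs (SE 0.10, p = 0.0237, adjusted p = 0.298; exact permutation p = 0.0286). Both values share the control libraries, and in β-cat cOEs it was 0.11 (95% interval -0.11 to 0.33). Without the 4 libraries high in olfactory bulb markers, one of them the lowest control, the difference of Cdh13 was 0.36 in APC cKOs (limma adjusted p = 0.688) and 0.19 in the double mutants (adjusted p = 0.598). With the olfactory bulb sum as a covariate these were 0.338 (limma adjusted p = 0.231) and 0.275 (adjusted p = 0.240). With the striatal sum added they were 0.398 (limma adjusted p = 0.439) and 0.299 (adjusted p = 0.169).

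Genes related to these cadherins, by family or as partners, also gave no call. Of 49 related genes (other classical and atypical cadherins, catenins, the proteases that cleave cadherins, and delta protocadherins) 40 were tested, and 0 passed an adjusted p under 0.05 by limma in any of the 7 comparisons. At an unadjusted p under 0.05 against controls there were 8 in APC cKOs (3 higher, 5 lower), or 20% of the 40 beside 10% of all genes. There were 6 in APC/β-cat cKOs (1 higher, 5 lower), or 15% beside 14.2%, and 0 in β-cat cOEs beside 5.07%. In APC/β-cat cKOs the gene with the smallest p was, among the other classical cadherins, Cdh24, a type II cadherin, with a log2 difference of -0.38 (limma adjusted p = 0.246). It was Fat3, a giant atypical cadherin, at -0.44 (adjusted p = 0.355), Ctnna2, neuronal αN-catenin, at -0.19 (adjusted p = 0.214), Adam10, a protease that sheds cadherin ectodomains, at -0.09 (adjusted p = 0.450), and Pcdh8, or arcadlin, at 0.30 (adjusted p = 0.210) in the other 4 lists. In APC cKOs the corresponding genes were Cdh19, a type II cadherin, at -0.42 (adjusted p = 0.468), Celsr1, a planar polarity cadherin, at 0.52 (adjusted p = 0.337), Ctnna2 at -0.14 (adjusted p = 0.424), Aph1b, a γ-secretase subunit, at -0.37 (adjusted p = 0.451) and Pcdh8 at 0.30 (adjusted p = 0.310). For β-cat cOEs the differences were -0.31 for Cdh1, or E-cadherin, 0.27 for Celsr1, -0.07 for Ctnna2 and -0.24 for Pcdh7.

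Promoter sequences from RefSeq (GRCm38.p6, 250 bases before to 50 after the start) were matched for 7 of the 10 members, as 9 promoters. The core of the TCF/LEF motif, CTTTGA on either strand, was found in 1 of the 9, one of the promoters of Cdh7, and in 16% of 32851 promoters of that length.

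No pair of members passed a test of varying together from library to library. With genotype means taken off, 39 of the 45 pairs of members had a Pearson's r above 0 over the 16 libraries, and the 6 below 0 all involved Cdh4. The libraries share their tissue makeup, and the same share over all genes was not computed. The pairs with the smallest permutation p were Cdh4 with Cdh8 (r = -0.718, permutation p = 0.00241, Spearman's rho = -0.729, permutation p = 0.00424) and Cdh10 with Cdh18 (r = 0.783, permutation p = 0.00242, rho = 0.753, permutation p = 0.00462). Over the 45 pairs 0 passed a Benjamini-Hochberg adjusted p under 0.05, and both of these stood at 0.0544. Without the 2 libraries farthest from the median, r was -0.526 for Cdh4 with Cdh8 and 0.756 for Cdh10 with Cdh18. For partners in binding, r was 0.627 for Cdh8 with Cdh11. It was 0.691 for Cdh6 with Cdh10, 0.358 for Cdh6 with Cdh9 and 0.313 for Cdh9 with Cdh10, and it was 0.445 for Cdh7 with Cdh12, 0.542 for Cdh7 with Cdh18 and 0.410 for Cdh12 with Cdh18. These 7 pairs were not tested against the other pairs.

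**Figure D3:**
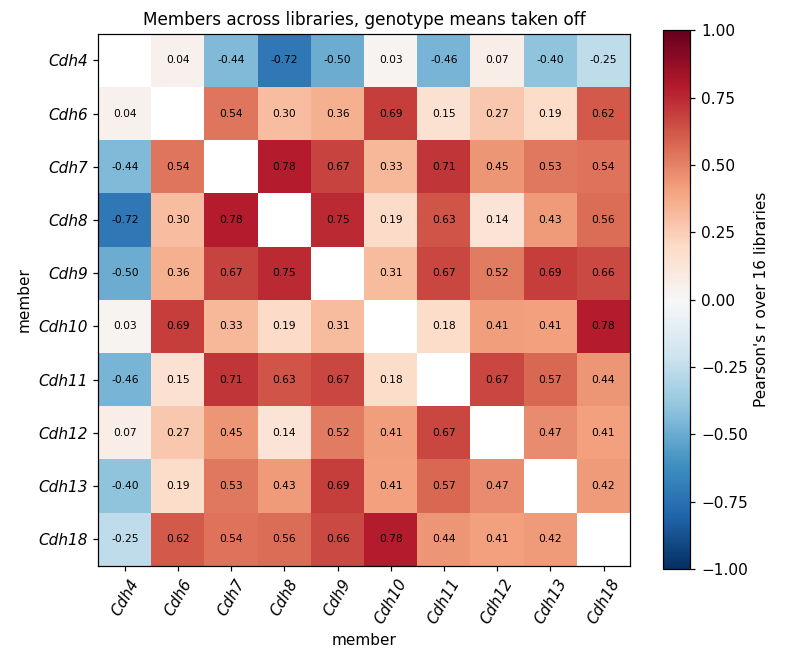
Pearson's r (colour scale, -1 to 1) for each pair of the 10 cadherins over 16 libraries, on log2(FPKM + 0.1) with genotype means taken off. Negative values lie in the row and column of Cdh4, down to -0.72 with Cdh8, and the highest value is 0.78.

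One relation between a member and a cell type marker list passed its test. Each member was compared with the sums of 12 marker lists, 120 relations with genotype means taken off, and 1 passed the Benjamini-Hochberg adjustment: Cdh4 was correlated with the sum of 4 astrocyte markers (Aqp4, Gfap, Aldh1l1 and Gja1), with r = 0.781 (permutation p = 4e-05, adjusted p = 0.0048) and rho = 0.812 (permutation p = 0.00012, adjusted p = 0.0144). Without the 2 libraries farthest from the median astrocyte sum r was 0.756, and without APC cKO replicate 1 alone the relation no longer passed. The astrocyte sum was 167 to 185 FPKM in controls, 189 to 296 for APC cKOs, 159 to 244 for APC/β-cat cKOs and 173 to 217 for β-cat cOEs, and Gfap alone ranged from 44.7 to 132 FPKM. Aqp4 ranged from 24.3 to 44.8, Gja1 from 69.2 to 99.6 and Aldh1l1 from 17.65 to 23.6 FPKM, and all 4 markers were above 0 in every library. The astrocyte sum was highest in APC cKO replicate 1 and APC/β-cat cKO replicate 2, both high in olfactory bulb markers. Cdh4 had an r of 0.659 with the olfactory bulb sum (permutation p = 0.0174, adjusted p = 0.149, rho = 0.565), and 0.368 without 2 libraries. The parts of astrocytes and of olfactory bulb tissue in the levels of Cdh4 were not tested.

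The relation of Cdh8 to the astrocyte sum had the opposite sign (r = -0.859, permutation p = 0.00331, adjusted p = 0.0753; rho = -0.750, permutation p = 0.00399), and r was -0.648 without the 2 libraries farthest from the median. Against the olfactory bulb sum r was -0.742 for Cdh8, -0.733 for Cdh9 and -0.646 for Cdh7, each with a permutation adjusted p of 0.0753, and rho was -0.603, -0.574 and -0.653. Without 2 libraries these values of r were -0.605, -0.601 and -0.560. Another 4 relations stood at an adjusted p under 0.1. Cdh8 had an r of -0.760 with the meningeal fibroblast sum (permutation adjusted p = 0.0748, rho = -0.762), and Cdh4 one of 0.632 (adjusted p = 0.0753, rho = 0.715). Cdh11 had an r of 0.710 with the cortical excitatory sum (permutation adjusted p = 0.0748, rho = 0.724), and Cdh6 one of -0.679 with the microglia sum (adjusted p = 0.0753, rho = -0.738). Without 2 libraries these were -0.817, 0.579, 0.720 and -0.628, and the part of those cells in the levels was not tested. The olfactory bulb sum was 25.7 to 223 FPKM in controls, 47.5 to 384 for APC cKOs, 42.3 to 287 for APC/β-cat cKOs and 67.5 to 364 for β-cat cOEs, with all 8 markers above 0 in every library. APC cKO replicate 1 and APC/β-cat cKO replicate 2, the lowest libraries for Cdh8, were among the 4 high ones. The 4 lowest libraries for Cdh9, at 7.79 to 9.79 FPKM, were those same 4, and the part of olfactory bulb tissue in the levels of Cdh7, Cdh8 and Cdh9 was not tested.

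**Figure D4:**
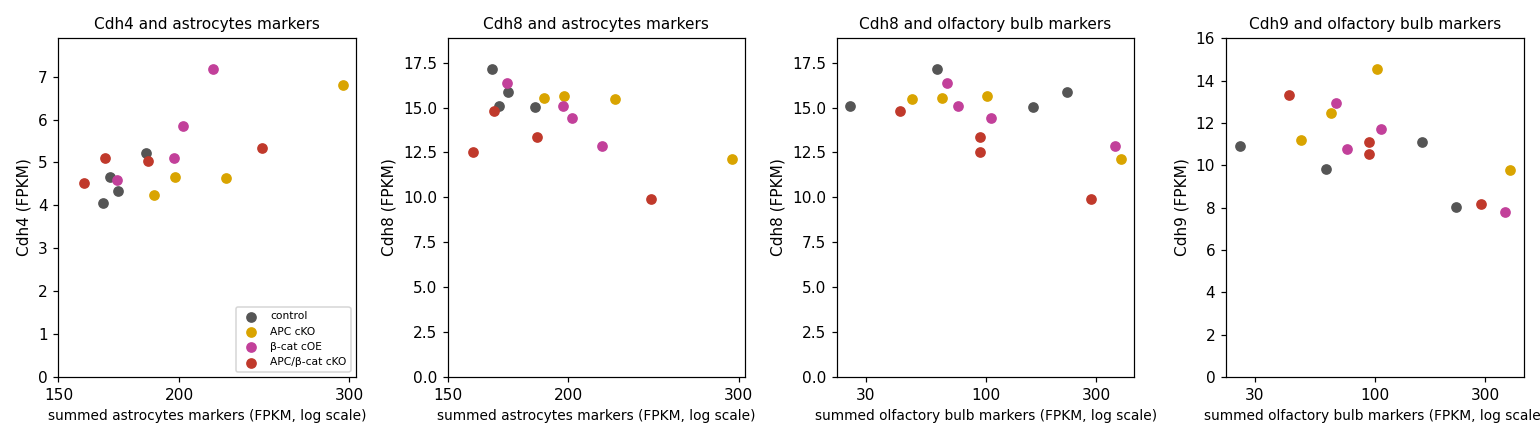
FPKM of Cdh4, Cdh8 and Cdh9 (vertical axes from 0) against the summed FPKM of astrocyte or olfactory bulb markers (horizontal log axes) in 16 libraries coloured by genotype. Cdh4 is higher and Cdh8 lower where astrocyte markers are high, and the 4 libraries over 200 FPKM of olfactory bulb markers include the lowest values of Cdh8 and Cdh9.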

How the data were processed

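The authors made TruSeq stranded mRNA libraries from the prefrontal cortex of 16 mice, sequenced them as paired ends, and ran bcl2fastq, TopHat2 2.0.10 on mm10 and Cuffdiff 2.1.1 with Cufflinks2. The deposited values are on a log scale, read as log2(FPKM + 1), since FPKM times transcript length then sums to 670210 to 709292 per library, against at least 5975349 if they were natural logs. They were turned back into FPKM, and all 16 value columns were used. The table holds no fragment counts, so the depth is unknown; 5726 to 6649 genes were at 0 per library. Nothing says that the replicates came from separate litters, and p-values measure the spread between these libraries.

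Genotypes came from the sample labels. Genes averaging 0.5 FPKM or more, 13978 of them, were fitted together with limma 3.58.1 (R 4.3.3, lmFit, contrasts.fit, eBayes with a trend) on log2(FPKM + 0.1), as one model of 4 genotypes with 12 residual degrees of freedom, and a gene was called at an adjusted p under 0.05 (Benjamini-Hochberg). Differences are on that scale, which understates those of low genes. Design and test had assumed FPKM, and were kept after the values were turned back. Data for 13978 genes were simulated with the spread of each gene within the 4 genotypes over all 16 libraries, drawn independently. For APC cKOs against controls the fit then called 91 of 100 genes changed by 1 and 99 of 100 changed by 2 on the log2 scale, and 7 of 13778 unchanged genes. Changes as small as the differences of the members were not simulated. Single members were also compared by exact two-sided permutation over 8 libraries. Correlations used log2(FPKM + 0.1) with genotype means taken off and 100000 permutations within genotypes (Python 3.11.15, numpy 2.4.6). Protein identity came from alignments of translated GENCODE transcripts in which gaps at the ends carried no penalty, over aligned residues. For Cdh13 with the type II members these were 580 to 608 residues.

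The members and the lists were chosen with earlier results of these data known. All 10 members are named, and related genes are named where they had the smallest p of their list against controls, and 1 such gene is not reported here. Alternatives were other pseudocounts, filters, scalings and covariates, the replicate number as a block, and each library left out. Pairing was checked by correlating deviations from genotype means. For APC cKOs and β-cat cOEs all 3 same-numbered pairs were above 0.1 (0.322, 0.197 and 0.111), and for no other 2 genotypes was every pair. Differently numbered pairs of these 2 genotypes ranged from -0.275 to 0.166. Both libraries of the pair at 0.322 exceeded 200 FPKM of olfactory bulb markers. Pairing and shared tissue makeup cannot be told apart by this check, and the labels do not state a pairing. Added after seeing the data were the marker relations, marker sums as covariates, a block of the sets of numbers in the column names, and a fit without 4 libraries.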

Additional observations from a re-analysis of the deposited data

Results flagged for a closer look

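In 4 of the 40 groups formed by 10 members and 4 genotypes, 1 of the 4 libraries stood apart by Dixon's ratio (its gap to the nearest library over the range of the group, against the 95% critical value); chance gives about 1 in 20 such groups. Cdh4 in APC cKO replicate 1 was at 6.80 FPKM, beside 4.23 to 4.66 FPKM in the other APC cKOs (ratio 0.833). Cdh8 in the same library was at 12.1 FPKM, beside 15.5 to 15.6 FPKM (ratio 0.956). Cdh13 in control replicate 3 was at 18.8 FPKM, beside 21.96 to 22.2 FPKM (ratio 0.930). Cdh18 in APC/β-cat cKO replicate 1 was at 12.9 FPKM, beside 8.93 to 9.54 FPKM (ratio 0.845). APC cKO replicate 1 and control replicate 3 were among the 4 libraries with more than 200 FPKM of olfactory bulb markers, and APC/β-cat cKO replicate 1, at 42.3 FPKM, was not. The part of those markers in the 3 values from such libraries was not tested.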

How the results depend on the processing

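Each member was refitted under 28 alternatives per comparison, 1960 fits in all, and 0 passed an adjusted p under 0.05; the smallest, 0.0527, was Cdh10 in APC cKOs against APC/β-cat cKOs with olfactory bulb and striatal sums as covariates. In 93 fits the sign turned, all for differences of at most 0.17 on the log2 scale. The number of members at an unadjusted p under 0.05 ranged against controls from 1 to 3 for APC cKOs, 1 to 5 for APC/β-cat cKOs and 0 to 1 for β-cat cOEs. With the double mutants as the reference it ranged from 0 to 5 for APC cKOs, the 5 with both sums as covariates, and 0 to 4 for β-cat cOEs, and it was 0 to 2 for APC cKOs against β-cat cOEs and 1 to 2 for raised β-catenin. With the replicate number as a replicate block the members called stayed at 0 in every comparison. In APC cKOs against β-cat cOEs, where all 3 same-numbered library pairs correlated above 0.1, the smallest limma adjusted p was 0.868. In that fit 0 members were at an unadjusted p under 0.05. Elsewhere 1 of 18 same-numbered pairs correlated above 0.1. The pairs of members passing numbered 6 without taking genotype means off, and 0 to 9 with 1 library left out, the 9 without β-cat cOE replicate 2. The marker relations passing numbered 0 without APC cKO replicate 1 to 7 without APC/β-cat cKO replicate 4. With the depth unknown, counting error cannot be told apart from the other spread between libraries, and the intervals hold both.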
